A study of Mus musculus with 9 samples.

Results

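The transcripts described here are those that differed between cells of the embryonic mouse cortex given short hairpin RNAs (shRNAs) against a circular RNA, circSlc45a4, and cells given a scrambled sequence. The 6 libraries of these groups, out of 9 in the series, were compared over every gene that passed a filter on low counts, 17760 of 53379 gene IDs. All embryos were C57BL/6, electroporated in utero on embryonic day E13.5 and collected 48 h later, on day E15.5. The knockdown group received a mix of 3 shRNAs against circSlc45a4, scramble received 1 scrambled sequence, and each had 3 biological replicates. GFP+ cells were sorted, RNA was taken with Trizol, and libraries were made with TruSeq from polyA RNA. A circular RNA has no polyA tail, so the target was not read and the depth of the knockdown is not known from these libraries. The remaining 3 libraries, which received 2 shRNAs against the linear Slc45a4 mRNA, entered the fit for its estimate of the spread and appear below only beside the sequence words. The number of embryos behind a library is not stated by the labels, and where replicates share a source the p-values measure only the spread between these libraries.

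Circular RNAs form when the spliceosome joins the end of an exon to the start of an upstream one, and many accumulate in the developing brain. An shRNA is cut by Dicer, and one strand is loaded into an Argonaute protein, which pairs it with target RNA, cutting fully matched targets. Partial matches through the seed, bases 2 to 8 of the small RNA, can also lower a transcript, mostly through its 3′ untranslated region (3′UTR). At this age the cortex holds radial glia that divide at the ventricle, intermediate progenitors and newborn neurons migrating outward.

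Library totals were 36883510 to 45469298 counts in the knockdown and 21073174 to 31833779 in scramble. Of the 12 markers of the cortical lineage, whose summed level was 5440 to 5690 CPM in the knockdown and 5970 to 6770 CPM in scramble (CPM, counts per 1000000 of a library's scaled total), 4 were higher (Pax6, Emx1, Emx2 and Sox2) and 2 lower (Dcx and Eomes). Microglial markers summed to 6.08 to 10.8 against 2.41 to 4.11 CPM with 1 of 6 higher (C1qa, log2 fold change 1.77), and endothelial markers to 0.604 to 1.52 against 1.46 to 3.92 CPM with 1 of 3 lower. In sorted bulk cells, fewer cells of a type and less RNA per cell cannot be told apart. Xist, which silences 1 X chromosome in females, was at 264 to 635 CPM in the knockdown libraries and at 0.0617 to 0.239 CPM in scramble, so the level of Xist and the treatment cannot be told apart. The Y-linked genes Ddx3y, Kdm5d and Eif2s3y stood at 20 to 37.1, 26.4 to 44.8 and 29.0 to 48.7 CPM in the knockdown and at 28.3 to 41.6, 38.3 to 67.8 and 37.7 to 66.3 CPM in scramble, and Uty at 8.34 to 14.8 against 15.7 to 23.1 CPM. None of these 4 was called, and each was read in every library of both groups. With the level of Xist as a covariate, 1176 of the 4814 calls held. Where the call of a gene named here ended in that fit, its value is given, with some exceptions. For Notch2, Nkiras2, Pcgf3, Pdgfrb, Dlx1, Dlx2, Gad2 and Olig2, named below, the outcome of that fit is not reported here. Their calls are therefore not said to have held in it. Of the markers above, Emx2 kept its call, and Pax6 (log2 fold change 0.84, edgeR adjusted p = 0.0621), Emx1 (0.44, 0.215), Sox2 (0.83, 0.133), Dcx (-0.54, 0.104), Eomes (-0.34, 0.202) and C1qa (1.84, 0.213) did not. The median SE rose from 0.12 to 0.21 in that fit, 4803 of the 4814 calls kept their direction, and 787 genes were higher and 412 lower by that test. With 1 library left out in turn, Emx1 was called in 1 of 6 fits and C1qa in 4 of 6. X-linked genes were called in 26.3% of cases (16.1% higher, 10.2% lower) and autosomal ones in 27.2% (14.0% higher, 13.1% lower). Of 12 Y-linked genes tested, 3 others were called higher, all over 2-fold, and 0 lower. Among X-linked genes, Eif2s3x (log2 fold change 0.63, edgeR adjusted p = 0.00181), Ddx3x (0.37, 0.0101) and Kdm5c (0.35, 0.0112) were called higher. Kdm6a was not called (0.2, edgeR adjusted p = 0.285). With the covariate Eif2s3x was not called (0.19, edgeR adjusted p = 0.508), and the values of Ddx3x and Kdm5c in that fit are not reported here. The part of embryo sex in these values was not tested.

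A gene was called at a Benjamini-Hochberg adjusted p under 0.05 in the quasi-likelihood test of edgeR, which gave 2509 genes higher and 2305 lower, 27.1% of those tested. More than 2-fold higher were 629 genes (3.54%) and more than 2-fold lower 540 (3.04%). The 3 knockdown libraries shared the changes, which the call itself favours: 99.6%, 99.8% and 99.2% of the genes called higher lay above all 3 scramble libraries in replicates 1, 2 and 3, and 99.6%, 99.4% and 98.7% of those called lower lay below them. The median change against the scramble mean was 0.62, 0.58 and 0.55 (log2) in the 3 libraries for genes called higher and -0.63, -0.61 and -0.56 for genes called lower. The 2 groups did not overlap for 98.3% of the called genes and for 43.9% of all genes tested. Calls held in each of the 6 fits that leave out 1 library for 2722 genes, 1532 higher and 1190 lower, and 158 were called in none of these fits. With upper-quartile factors in place of TMM (trimmed mean of M-values) scaling, 2094 genes were called higher and 2854 lower, and the median of all genes moved by -0.06. Among 55 gene lists described below, the counts of members called higher or lower (110 counts) moved by over 1.5 times in 38 cases without scramble replicate 2, in 27 and 28 without knockdown replicates 1 and 2, and in 6 to 18 without each of the other libraries.

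The linear transcript of the host gene was slightly lower. Slc45a4 (ENSMUSG00000079020.9, chr15:73577424-73645762, minus strand, GRCm38) encodes a sugar transporter of the SLC45 family and stood at 25.4, 25.3 and 24.7 CPM in knockdown replicates 1, 2 and 3 and at 31.4, 33.6 and 33.96 CPM in those of scramble. The groups did not overlap, and the log2 fold change was -0.39 ± 0.12 SE, edgeR adjusted p = 0.0245. Slc45a4, Chrac1 and Ptk2 were not called with the Xist covariate (log2 fold change -0.23, -0.56 and 0.32, edgeR adjusted p = 0.581, 0.145 and 0.185, in that order). Slc45a4 and Ptk2 did not pass when a change had to exceed 1.2-fold (edgeR adjusted p = 0.206 and 0.59, in that order). The call of Slc45a4 ended without knockdown replicate 1 (-0.40, edgeR adjusted p = 0.0659), without knockdown replicate 2 (-0.40, edgeR adjusted p = 0.0694), without knockdown replicate 3 (-0.38, edgeR adjusted p = 0.0661), without scramble replicate 2 (-0.38, edgeR adjusted p = 0.0866) and without scramble replicate 3 (-0.37, edgeR adjusted p = 0.0758). The call of Ptk2 ended with upper-quartile factors (0.21, edgeR adjusted p = 0.0559), without knockdown replicate 1 (0.26, edgeR adjusted p = 0.0633), without knockdown replicate 3 (0.25, edgeR adjusted p = 0.059), without scramble replicate 2 (0.27, edgeR adjusted p = 0.0676) and without scramble replicate 3 (0.22, edgeR adjusted p = 0.0981). Within 1 Mb of Slc45a4, and with Slc45a4 itself counted, 15 genes were tested, of which 3 were higher and 2 lower. The 2 lower were Slc45a4 and Chrac1, so the share called, 33.3% against 27.1% of all genes, includes the targeted gene. Ago2 (ENSMUSG00000036698.10, chr15:73095844-73184935, minus strand), an Argonaute protein that cuts RNA paired with its guide, stood at 199, 169 and 155 CPM in knockdown replicates 1, 2 and 3 and at 55.8, 65.5 and 72.3 CPM in those of scramble. Every knockdown library lay above every scramble library, with a log2 fold change of 1.44 ± 0.12 SE, edgeR adjusted p = 2.96e-06. Adgrb1 (ENSMUSG00000034730.16, chr15:74516195-74589465, plus strand), an adhesion receptor of the brain, stood at 125, 110.0 and 103 CPM in knockdown replicates 1, 2 and 3 and at 54.9, 63.6 and 62.95 CPM in those of scramble, again with no overlap (log2 fold change 0.90 ± 0.12 SE, edgeR adjusted p = 1.60e-04). Chrac1, a histone-fold protein of a chromatin remodelling complex, had a log2 fold change of -0.61 ± 0.12 SE, edgeR adjusted p = 0.00185, and Ptk2, the focal adhesion kinase, one of 0.26 ± 0.08 SE, edgeR adjusted p = 0.0209. The 3′ ends of Chrac1 and Ago2 overlap on opposite strands, and since the strand setting of the counting is not known here, reads in the overlap cannot be told apart.

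Because a guide strand acts through short matches, every 7-base word was counted in the 3′UTRs of protein-coding genes at 1 CPM or more whose 3′UTR had at least 50 bases, 11757 genes, of which 2190 were called higher and 1825 lower. The words were ranked on the same calls that they are read against, so their shares are a description with no test. Of the first 8 words by the share of genes called higher, 4 hold the 6 bases GTCGAT, and of the first 8 by the share called lower, 6 hold AGCCGC. Below are 20-base windows around a match in 4 of the genes with the smallest p among those called higher and in 4 among those called lower (GENCODE M21, GRCm38, each read 5′ to 3′ on the strand of the gene), with that 6-base word in capitals.

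Dynll2: attaaagGTCGATtgatgca
Fat3: ccaagctGTCGATctttgcc
Notch2: tttgctaGTCGATgctgcat
Gnaq: tcctgttGTCGATgctctag
Nkiras2: tgggataAGCCGCgccccca
Pcgf3: atgacttAGCCGCggtgttt
Slc7a5: caccaccAGCCGCctaacac
Rnf10: caacttgAGCCGCcttcccg

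The windows lie at chr11:87979532-87979551 (minus strand) for Dynll2, chr9:15912009-15912028 (minus) for Fat3, chr3:98148755-98148774 (plus) for Notch2 and chr19:16386557-16386576 (plus) for Gnaq. Those with the other word lie at chr11:100627252-100627271 (plus) for Nkiras2, chr5:108500889-108500908 (plus) for Pcgf3, chr8:121882924-121882943 (minus) for Slc7a5 and chr5:115241758-115241777 (minus) for Rnf10. Dynll2, a dynein light chain, stood at 219, 206 and 206 CPM in knockdown replicates 1, 2 and 3 and at 76.8, 68.7 and 65.3 CPM in those of scramble. Its groups were far apart (log2 fold change 1.58 ± 0.08 SE, edgeR adjusted p = 2.36e-07). Fat3, a giant cadherin, stood at 489, 413 and 487 CPM in knockdown replicates 1, 2 and 3 and at 162, 151 and 151 CPM in those of scramble. It showed no overlap either, with a log2 fold change of 1.58 ± 0.09 SE, edgeR adjusted p = 4.37e-07. Slc7a5, an importer of large neutral amino acids, stood at 21.2, 22.1 and 24.99 CPM in knockdown replicates 1, 2 and 3 and at 52.5, 65.3 and 64.3 CPM in those of scramble. All knockdown libraries lay below all scramble libraries (log2 fold change -1.42 ± 0.11 SE, edgeR adjusted p = 2.87e-06).

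The word GTCGAT stood in the 3′UTR of 467 genes, 3.97% of those searched, and 48.2% of them (225) were called higher and 6.21% (29) lower, with a median log2 fold change of 0.33 against 0.01 over all genes searched. Among the 7-base words that hold it, AGTCGAT stood in 170 genes of which 52.9% were higher, GTCGATT in 136 with 50%, and TGTCGAT in 183 with 47.5%. Over the 15780 words found in at least 100 genes, the median share called higher was 23.3% and the 99th percentile 30.3%. The 22 genes with 2 or more matches were higher in 77.3% of cases. A match in the coding sequence alone went with 30.2% of 950 genes called higher, and no match in either place with 16.2% of 10340. All genes searched were split into 4 classes of equal size from the shortest to the longest 3′UTRs, in which 22, 57, 121 and 267 genes held the word. The share of them called higher was 36.4%, 45.6%, 47.9% and 49.8%, so the first of these rests on 8 of 22 genes, against 12.1%, 16.3%, 17.8% and 24.1% without the word. Of the first 50 genes called higher by p, 16 held the word.

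The word AGCCGC stood in the 3′UTR of 1197 genes (10.2%), of which 28.2% (337) were called lower and 15.7% (188) higher, with a median log2 fold change of -0.10. TAGCCGC (158 genes, 34.2% lower), AAGCCGC (303, 33.0%) and AGCCGCA (360, 32.8%) had the highest shares, where the median over words was 14.9% and the 99th percentile 21.0%. With 2 or more matches, 36.5% of 148 genes were lower. A match in the coding sequence alone went with 17.6% of 3192 genes called lower, and no match with 12.6% of 7368. Among the 90, 188, 340 and 579 genes with the word in the same classes, from the shortest to the longest, the share lower ran 41.1%, 33.0%, 34.4% and 20.9%, against 14.1%, 15.6%, 14.3% and 12.2% without it. Of the first 50 genes called lower by p, 25 held the word. Both words contain CG, as do the first 8 words in each direction, and among the 4916 words with CG the 99th percentile was 33.0% for genes called higher and 23% for genes called lower, against 26.7% and 17.4% for the 10864 words without it.

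**Figure D1:**
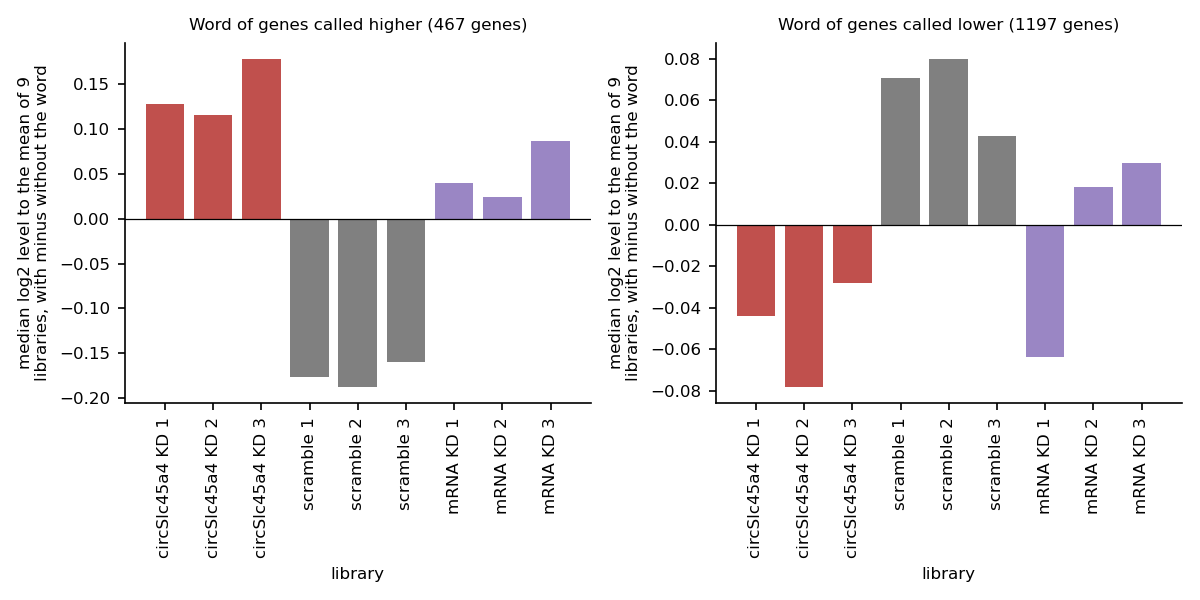
Median log2 level of genes with a word in their 3′UTR minus that of genes without it, in each library relative to each gene's mean over the 9 libraries, for the 6-base word held by 4 of the first 8 words for genes called higher (left, 467 genes) and that held by 6 of the first 8 for genes called lower (right, 1197 genes). Bars are circSlc45a4 knockdown (red), scramble (grey) and Slc45a4 mRNA knockdown (violet) libraries. On the left the 3 knockdown bars lie at 0.116 to 0.178 and the 3 scramble bars at -0.187 to -0.16. Both words were chosen on calls between these same libraries, which favours that split.

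In single libraries, genes with GTCGAT differed from genes without it by 0.128, 0.116 and 0.178 (log2, relative to the mean of the 9 libraries) in knockdown replicates 1, 2 and 3. The differences were -0.176, -0.187 and -0.16 in scramble libraries. With the mRNA targeted they were 0.04, 0.024 and 0.087. The knockdown and scramble libraries stood on opposite sides, and the mRNA knockdown libraries lay between them. The words were chosen on calls between these same knockdown and scramble libraries, which favours that split, so it is a description with no test. For AGCCGC the values were -0.044, -0.078 and -0.028 after targeting of the circular RNA, 0.071, 0.08 and 0.043 in scramble, and -0.064, 0.018 and 0.03 after targeting of the mRNA. The median log2 difference of the genes with GTCGAT was 0.33 for the circSlc45a4 knockdown against scramble, 0.23 for the mRNA knockdown against the same scramble libraries, and 0.08 between the knockdowns. For AGCCGC these medians were -0.10, -0.09 and -0.02. The hairpin sequences, scrambled one included, are not in the sources used here, so neither word was compared with them, and their part in these values was not tested. Of 1679 mature mouse miRNAs in RefSeq, 1 holds the complement of GTCGAT within bases 2 to 8 (in capitals), and none holds that of AGCCGC.

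mmu-miR-369-5p: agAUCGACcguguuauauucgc

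Genes called higher had longer 3′UTRs, with a median of 1712 bases against 1266 in genes called lower and 1197 in genes not called. Their median GC content was 43.2%, 46% and 44.2% in the same order, and the share called higher rose over the 4 length classes from 12.3% to 26.4%. Sites of 13 miRNA families of the brain were therefore read within length classes, and those of miR-130, miR-19 and miR-92 are given first, chosen after their values were seen. The site for the seed of miR-130 (TTGCACT) stood in 18.2% of genes called higher, 9.97% of those called lower and 11.8% of those not called. For miR-19 these shares were 20.4%, 12.3% and 13.6%, and for miR-92 12.5%, 7.01% and 7.38%. In the class of longest 3′UTRs, 29.9% of genes with the miR-130 site were higher against 25.1% without it, 29.1% against 25.2% for miR-19, and 32.7% against 25% for miR-92. In the class below it these shares were 25.1% against 18% for miR-130, 25.3% against 17.8% for miR-19 and 22.9% against 18.7% for miR-92. In the longest class the site went with a larger share called higher for 12 of the 13, among them miR-181 (30.7% against 23.4%) and miR-17 (29.7% against 24.7%), and with a smaller one for miR-125 (25% against 27%). The share was larger with the site for 10 of the 13 in the class below and for 12 when both shorter classes were joined. Length was not matched within a class, and the longest class ran from 2443 to 122583 bases. Over all 7-base words in at least 100 genes, the median share called higher was 23.3%, against 18.6% of genes searched. That share was not taken by class, so the part of length in these values was not tested. The seeds of miR-130, miR-19 and miR-92 are in capitals, and those of miR-130 and miR-19 share a longer stretch than either shares with that of miR-92.

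mmu-miR-130a-3p: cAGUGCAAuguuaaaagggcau
mmu-miR-19b-3p: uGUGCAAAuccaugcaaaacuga
mmu-miR-92a-3p: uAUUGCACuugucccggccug

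Transcription factors were called about as often as other protein-coding genes, 31.1% against 31.7% of all protein-coding genes and 27.1% of all genes tested. Of 803 factors tested, 136 were higher and 114 lower, with a median log2 fold change of -0.02. Families differed in their split. Members were taken by gene symbol alone, and whether each binds DNA was not checked. The bHLH count thus includes Bhlhb9 (log2 fold change 1.27). Among HMG-box factors (the Sox and Tcf/Lef proteins) 11 of 24 were higher and 3 lower (8 to 10 and 1 to 2 with any 1 library left out, 4 and 0 with the Xist covariate), with a median log2 fold change of 0.17, among ETS factors 6 of 16 were higher and 1 lower (5 to 6 and 1 with any 1 library left out, 4 and 0 with the Xist covariate), with a median log2 fold change of 0.38, and among basic helix-loop-helix (bHLH) factors 15 of 64 were higher and 7 lower (9 to 16 and 3 to 6 with any 1 library left out, 5 and 1 with the Xist covariate), with a median log2 fold change of 0.07. Homeodomain factors were called in both directions, as 13 of 59 were higher and 14 lower (6 to 9 and 8 to 15 with any 1 library left out, 1 and 5 with the Xist covariate), with a median log2 fold change of -0.08. Among nuclear receptors 4 of 30 were higher and 6 lower (1 to 4 and 5 to 8 with any 1 library left out, 0 and 2 with the Xist covariate), with a median log2 fold change of -0.16. Of the large group of numbered zinc finger proteins, 36 of 360 were higher and 46 lower (25 to 28 and 25 to 37 with any 1 library left out, 9 and 7 with the Xist covariate), with a median log2 fold change of -0.04. Forkhead factors had 3 of 17 higher and 3 lower (2 to 3 and 2 to 3 with 1 library left out), and bZIP factors 6 of 43 higher and 4 lower (5 to 6 and 1 to 4 with 1 library left out). The shares higher and lower were 17.6% and 17.6% for forkhead and 14.0% and 9.3% for bZIP factors. Of all protein-coding genes 17.2% were higher and 14.5% lower.

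Tcf7l2 (ENSMUSG00000024985.18, chr19:55741820-55933654, plus strand), a DNA-binding partner of beta-catenin in Wnt signalling, stood at 9.301, 9.35 and 9.37 CPM in knockdown replicates 1, 2 and 3 and at 2.44, 2.98 and 3.15 CPM in those of scramble. It was about evenly raised in all knockdown libraries (log2 fold change 1.70 ± 0.20 SE, edgeR adjusted p = 5.95e-05). Hes1, the repressor that Notch signalling induces, stood at 16.7, 24.3 and 24.9 CPM in knockdown replicates 1, 2 and 3 and at 6.41, 7.84 and 10.2 CPM in those of scramble. Its lowest knockdown library lay above the highest scramble library (log2 fold change 1.42 ± 0.26 SE, edgeR adjusted p = 0.00147). Stat3, which carries cytokine signals to the nucleus and favours astrocyte fate, rose from 16.2 ± 1.301 to 36.4 ± 5.47 CPM (mean ± SD, n = 3 each, log2 fold change 1.17 ± 0.13). Max, the obligate partner of Myc, rose by 0.96 ± 0.08, and Clock, a circadian activator, by 0.85 ± 0.09 (log2).

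Of the 4 POU class 3 factors, 3 fell. Pou3f1 (ENSMUSG00000090125.3, chr4:124656807-124660655, plus strand), a factor of upper-layer neurons, stood at 23.9, 25.6 and 32.95 CPM in knockdown replicates 1, 2 and 3 and at 100.3, 92.1 and 64.6 CPM in those of scramble. The knockdown libraries lay well below scramble (log2 fold change -1.64 ± 0.22 SE, edgeR adjusted p = 1.33e-04). Pou3f4 had a log2 fold change of -1.40 ± 0.16 SE, edgeR adjusted p = 3.81e-05, and Pou3f3 one of -1.12 ± 0.12. Pou3f2 was not called, at -0.28 ± 0.14. Meis1, a homeodomain factor of the TALE class, fell from 11.3 ± 1.35 to 3.94 ± 0.712 CPM (log2 fold change -1.51 ± 0.22). Thrb, a thyroid hormone receptor, fell by 1.77 ± 0.20 on the log2 scale, and Ebf3, a factor of Cajal-Retzius cells among others, fell from 10.2 ± 1.53 to 2.28 ± 0.990 CPM. Reln, another marker of those cells, was called higher with a log2 fold change of 2.15. The sum of the 6 markers of Cajal-Retzius cells and the cortical hem was 73.7 to 249 CPM in the knockdown and 29.5 to 66.4 CPM in scramble. Calb2, Rspo1, Trp73 and Lhx5 among them were under 1 CPM in all 6 libraries, and Ebf3 fell, so the sum mostly follows Reln. Pou3f1 and Reln were not called with the Xist covariate (log2 fold change -1.32 and 1.70, edgeR adjusted p = 0.0563 and 0.188, in that order).

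Further rises among the factors were low in level or varied between libraries. Tcf15 stood at 6.46, 5.55 and 3.89 CPM in knockdown replicates 1, 2 and 3 and at 1.77, 0.940 and 1.08 CPM in those of scramble, with no overlap (log2 fold change 2.09 ± 0.30 SE, edgeR adjusted p = 2.41e-04). Nfe2l3, a cap'n'collar bZIP factor, had a log2 fold change of 1.82 ± 0.26 SE, edgeR adjusted p = 1.91e-04, Nfatc4, which calcineurin brings to the nucleus, one of 1.32 ± 0.21 SE, edgeR adjusted p = 5.03e-04, and Zic5, a zinc finger factor of the dorsal midline, one of 1.49 ± 0.29 SE, edgeR adjusted p = 0.00222. The neuronal factors Nhlh2 (1.55 ± 0.41), Ebf1 (2.29 ± 0.65) and the orphan receptor Esrrg (1.35 ± 0.39) were called higher, and Tfap2d (-1.90 ± 0.62) and Nr2f2 (-2.03 ± 0.44), a factor of the caudal cortex and the ganglionic eminence, lower. Nfe2l3, Zic5, Nhlh2, Ebf1, Esrrg, Tfap2d and Nr2f2 were not called with the Xist covariate (log2 fold change 1.36, 1.23, 0.65, 0.50, 1.25, -2.17 and -2.16, edgeR adjusted p = 0.0839, 0.164, 0.62, 0.878, 0.308, 0.27 and 0.136, in that order). Tfap2d did not pass when a change had to exceed 1.2-fold (edgeR adjusted p = 0.0687). The call of Nhlh2 ended without knockdown replicate 1 (1.16, edgeR adjusted p = 0.0669) and without scramble replicate 2 (1.49, edgeR adjusted p = 0.0536). The call of Ebf1 ended without knockdown replicate 1 (1.61, edgeR adjusted p = 0.113), without scramble replicate 1 (1.93, edgeR adjusted p = 0.0593) and without scramble replicate 2 (1.99, edgeR adjusted p = 0.0852). The call of Esrrg ended without knockdown replicate 1 (1.16, edgeR adjusted p = 0.0799), without knockdown replicate 2 (1.33, edgeR adjusted p = 0.0557), without scramble replicate 1 (1.13, edgeR adjusted p = 0.0655) and without scramble replicate 2 (1.07, edgeR adjusted p = 0.0862). The call of Tfap2d ended with the Wald test of DESeq2 (-1.90, adjusted p = 0.0995), without knockdown replicate 1 (-1.64, edgeR adjusted p = 0.13), without knockdown replicate 2 (-1.40, edgeR adjusted p = 0.0812), without scramble replicate 2 (-1.83, edgeR adjusted p = 0.0955) and without scramble replicate 3 (-1.68, edgeR adjusted p = 0.105).

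**Figure D2:**
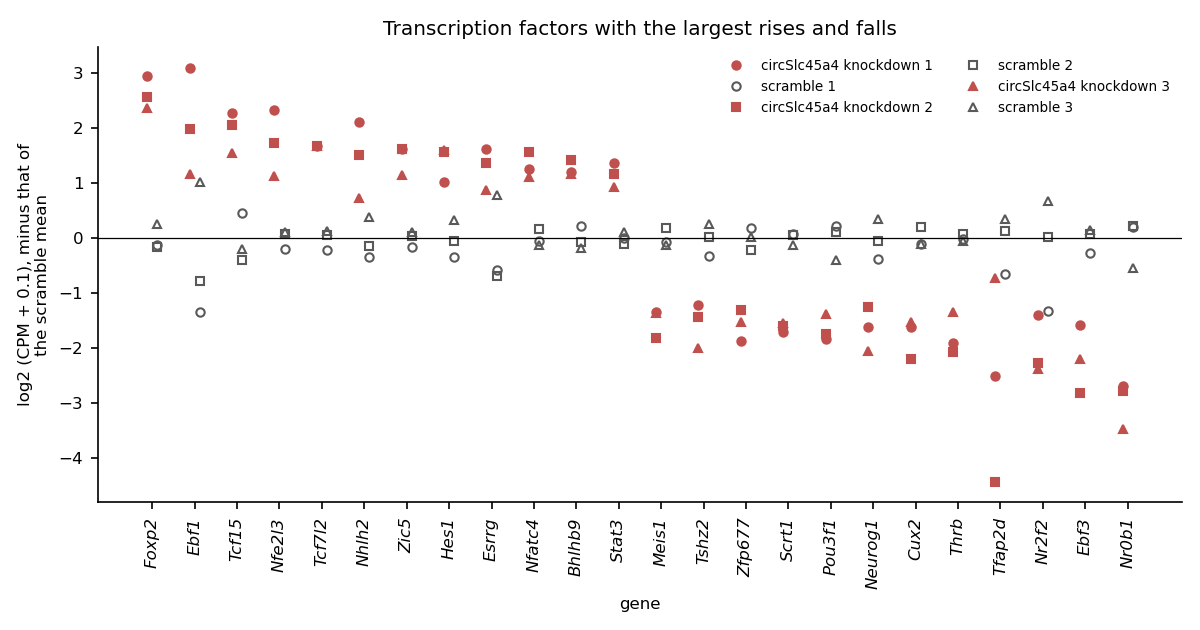
The 12 transcription factors with the largest rises and the 12 with the largest falls among called members with non-overlapping groups, as log2 (CPM + 0.1) minus that of the scramble mean, with 1 point per library (filled, circSlc45a4 knockdown; open, scramble; shapes are replicates). Only members with an average log2 CPM of at least 1 were ranked. Members were taken by gene symbol alone, Bhlhb9 among them. Tcf7l2 lies in a tight cluster above 0 in all knockdown libraries, whereas Ebf1 and Nhlh2 are spread over their libraries.

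Of chromatin modifiers and remodellers, 34 of 142 were higher and 20 lower (23 to 35 and 9 to 15 with any 1 library left out, 15 and 2 with the Xist covariate), with a median log2 fold change of 0.08. Cbx5 (ENSMUSG00000009575.14, chr15:103191544-103239816, minus strand), heterochromatin protein HP1 alpha, stood at 476, 470.3 and 529.7 CPM in knockdown replicates 1, 2 and 3 and at 164, 176 and 184 CPM in those of scramble. The knockdown libraries all lay more than 2-fold above scramble (log2 fold change 1.49 ± 0.09 SE, edgeR adjusted p = 5.79e-07). Cbx7, a subunit of Polycomb repressive complex 1, went the other way from 8.36 ± 0.864 to 3.14 ± 0.247 CPM (log2 fold change -1.42 ± 0.17). Brd3, a reader of acetylated histones, rose by 0.83 ± 0.08, Phf20 by 0.70 ± 0.07, and Rnf2, the ubiquitin ligase of Polycomb repressive complex 1, by 0.95 ± 0.09. The lysine methyltransferase Setd7 fell by 0.92 ± 0.10 and the deacetylase Hdac8 by 0.68 ± 0.10, all on the log2 scale. Hdac8 was not called with the Xist covariate (log2 fold change -0.58, edgeR adjusted p = 0.0806).

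The TGF-beta and BMP pathway, secreted ligands that signal through serine/threonine kinase receptors and Smad proteins, was called higher far more often than lower. Of its members, 15 of 40 were higher and 1 lower (12 to 14 and 0 to 1 with any 1 library left out, 10 and 0 with the Xist covariate), with a median log2 fold change of 0.42. Tgfbr1 (ENSMUSG00000007613.15, chr4:47353222-47414931, plus strand), the type I receptor for TGF-beta, stood at 223, 209 and 253 CPM in knockdown replicates 1, 2 and 3 and at 126, 118 and 119.7 CPM in those of scramble. Its groups were separate and each was tight (log2 fold change 0.91 ± 0.08 SE, edgeR adjusted p = 7.16e-06). The ligand Gdf11, which limits neurogenesis, rose from 20.1 ± 0.924 to 41.6 ± 2.26 CPM (log2 fold change 1.05 ± 0.10). Fstl1, a secreted glycoprotein that binds BMP ligands, rose from 51.9 ± 2.37 to 95.9 ± 5.36 CPM (log2 fold change 0.88 ± 0.08).

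Other growth factor genes moved in both directions. Among receptor tyrosine kinases and other growth factor ligands, 14 of 48 were higher and 7 lower (11 to 13 and 4 to 9 with any 1 library left out, 7 and 2 with the Xist covariate), with a median log2 fold change of 0.14. Igfbp5, which binds insulin-like growth factors, rose from 23.9 ± 2.31 to 77.9 ± 6.12 CPM (log2 fold change 1.70 ± 0.17), the neuregulin Nrg1 rose by 1.01 ± 0.12, and the receptor Axl by 1.15 ± 0.14, while Gas6, the ligand of Axl, fell by 1.33 ± 0.25. The ligands Angpt1 and Kitl fell by 2.18 ± 0.30 and 1.48 ± 0.20 on the log2 scale. The FGF and ERK feedback list had 4 of 28 higher and 4 lower (3 to 4 and 2 to 5 with 1 library left out). These shares, 14.3% each, were near those of all protein-coding genes, 17.2% higher and 14.5% lower. Fgfr3, an FGF receptor of radial glia, stood at 161, 139.7 and 108 CPM in knockdown replicates 1, 2 and 3 and at 52.8, 75.2 and 72.99 CPM in those of scramble. All knockdown libraries were above scramble (log2 fold change 1.02 ± 0.16 SE, edgeR adjusted p = 3.95e-04). The Sprouty-related inhibitors split, with Spred1 at 0.60 ± 0.10 and Spred2 at -0.74 ± 0.13. Etv5, an ETS factor that FGF signalling induces, rose by 0.81 ± 0.18. Retinoid handling had 3 of 12 higher and 2 lower (3 and 0 to 2 with 1 library left out), and Dhrs3, which reduces retinaldehyde, had a log2 fold change of 1.69 ± 0.28. Gas6 was not called with the Xist covariate (log2 fold change -0.83, edgeR adjusted p = 0.28).

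Among G protein-coupled receptors, 34 of 137 were higher and 15 lower (25 to 31 and 8 to 17 with any 1 library left out, 16 and 4 with the Xist covariate), with a median log2 fold change of 0.12. Adora1, an inhibitory adenosine receptor, rose from 4.49 ± 1.04 to 17.6 ± 2.05 CPM (log2 fold change 1.99 ± 0.20), and the Wnt receptor Fzd1 rose by 1.07 ± 0.10. The somatostatin receptors split, Sstr3 at 1.17 ± 0.12 and Sstr2 at -0.65 ± 0.09. The prokineticin receptor Prokr2 fell by 1.68 ± 0.20. Inside the cell, several alpha subunits, some of which couple receptors to phospholipase C, were higher. Gnaq (ENSMUSG00000024639.5, chr19:16132831-16387463, plus strand) stood at 219, 203 and 255 CPM in knockdown replicates 1, 2 and 3 and at 79.8, 72.6 and 70.1 CPM in those of scramble. It was more than 2-fold higher in each knockdown library (log2 fold change 1.61 ± 0.10 SE, edgeR adjusted p = 7.34e-07). Gna11 rose by 0.93 ± 0.11 and Gna13 by 1.48 ± 0.09, while Gna12 was not called, at -0.14 ± 0.13. The list of G protein subunits and RGS proteins had 10 of 40 higher and 10 lower (6 to 9 and 7 to 10 with 1 library left out), and Rgs16, which speeds the turn-off of G alpha subunits, fell by 0.65 ± 0.08. Rgs10 stood at 0.179, 0.273 and 0.179 CPM in knockdown replicates 1, 2 and 3 and at 1.24, 1.102 and 1.11 CPM in those of scramble, all at or above the level of 3 counts. Sstr2 was not called with the Xist covariate (log2 fold change -0.54, edgeR adjusted p = 0.0698).

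Rnd3 (ENSMUSG00000017144.8, chr2:51130438-51149111, minus strand), a small GTPase needed for radial migration of cortical neurons, stood at 287, 256 and 239 CPM in knockdown replicates 1, 2 and 3 and at 66.99, 79.1 and 101 CPM in those of scramble. The knockdown libraries were well separated from scramble (log2 fold change 1.66 ± 0.17 SE, edgeR adjusted p = 1.35e-05). Rhob rose by 0.75 ± 0.10, and the Rac-directed proteins Chn1, Chn2 and Vav3 fell by 0.87 ± 0.07, 0.75 ± 0.11 and 1.66 ± 0.28. Phosphatases with dual or tyrosine specificity had 15 of 50 higher and 9 lower (10 to 13 and 7 to 9 with 1 library left out, 11 and 12 with upper-quartile factors), with Dusp26 at 2.25 ± 0.20 and Ptprg at 0.85 ± 0.11, and Dusp28, Dusp8 and Ptpro at -1.44 ± 0.17, -0.92 ± 0.10 and -0.86 ± 0.08 (log2 fold changes). Cytokines, chemokines and complement had 6 of 52 higher and 8 lower (5 to 10 and 6 to 8 with 1 library left out). Their shares were 11.5% higher and 15.4% lower, against 17.2% and 14.5% of all protein-coding genes. The colony stimulating factor Csf1, which microglia need, had a log2 fold change of 0.79 ± 0.12. Chn2 and Vav3 were not called with the Xist covariate (log2 fold change -0.53 and -1.65, edgeR adjusted p = 0.0973 and 0.0692, in that order).

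**Figure D3:**
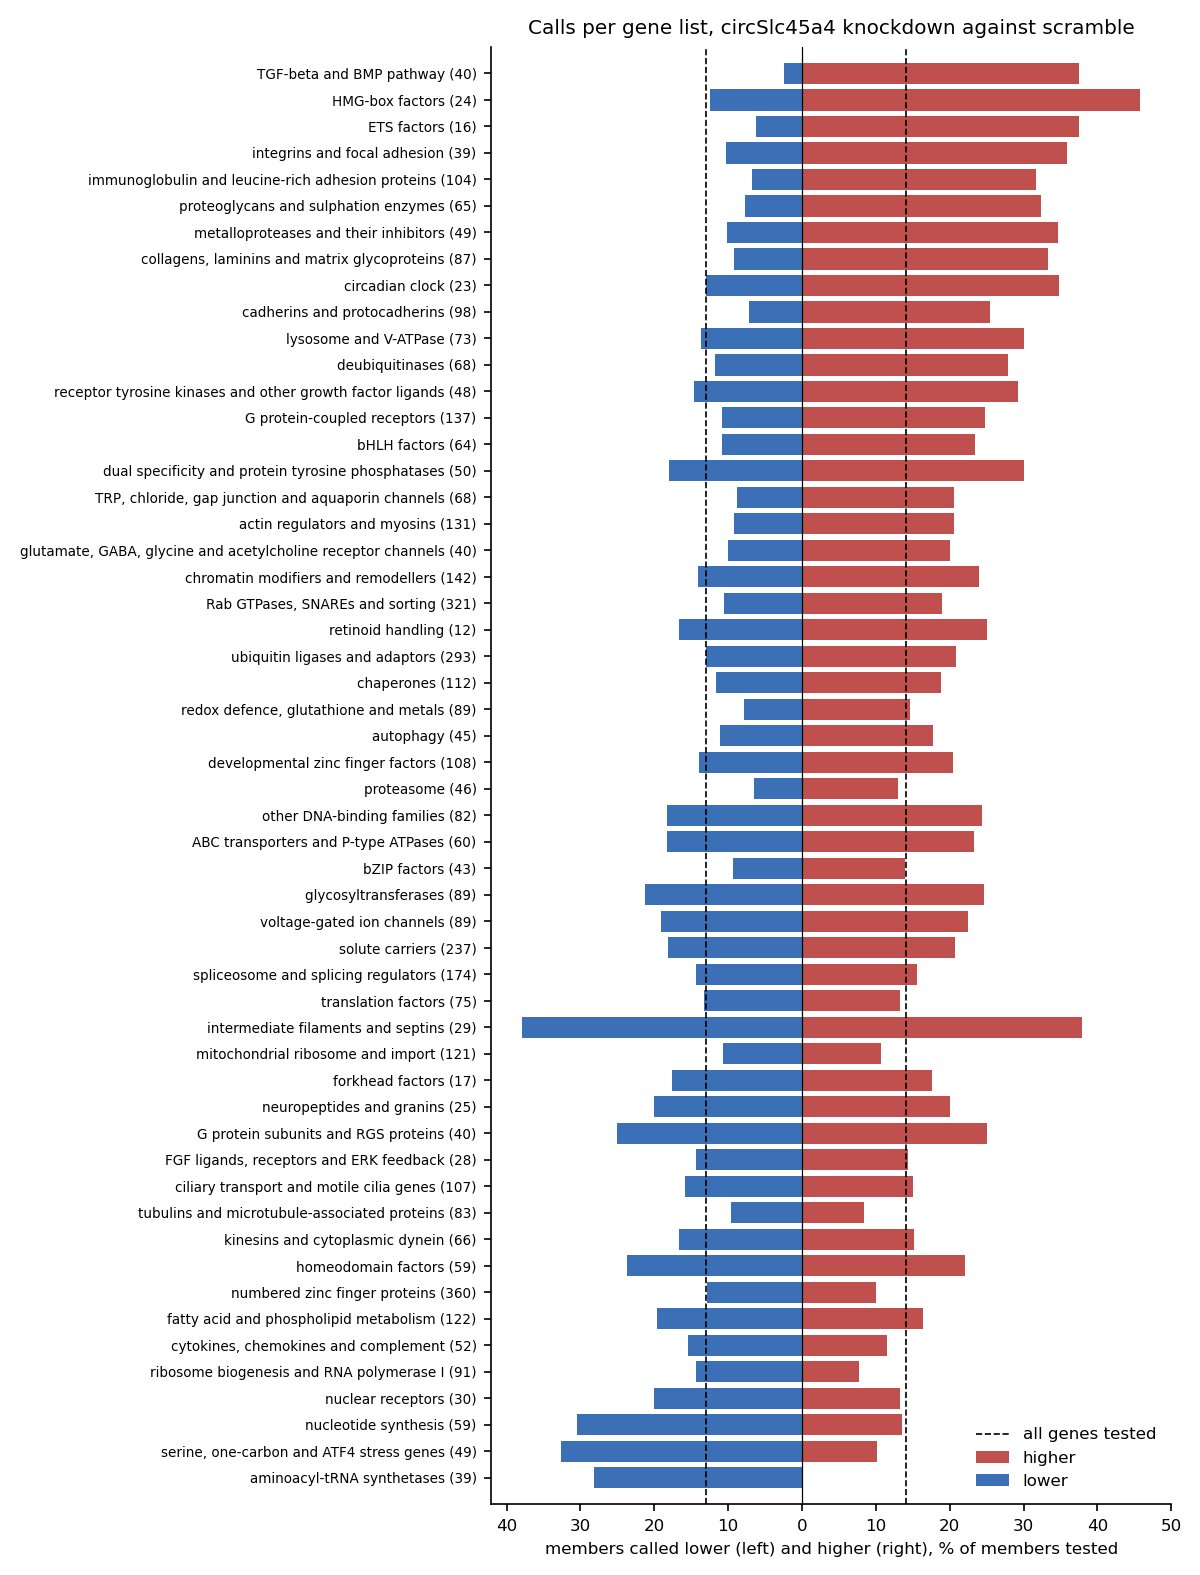
Percent of members called lower (left of 0) and higher (right of 0) in each gene list reported, with the number of members tested in brackets and dashed lines for all genes tested (14.1% higher, 13% lower). Members are protein-coding genes only, and of all protein-coding genes tested 17.2% were higher and 14.5% lower. TGF-beta, matrix, adhesion and ETS lists extend to the right, and aminoacyl-tRNA synthetases and the serine and ATF4 list to the left.

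Genes of the cell surface and the extracellular matrix rose more often than they fell. Among collagens, laminins and matrix glycoproteins, 29 of 87 were higher and 8 lower (25 to 27 and 5 to 7 with any 1 library left out, 15 and 1 with the Xist covariate), with a median log2 fold change of 0.41. Among cadherins and protocadherins, 25 of 98 were higher and 7 lower (17 to 26 and 4 to 7 with any 1 library left out, 6 and 0 with the Xist covariate), with a median log2 fold change of 0.23. Among immunoglobulin and leucine-rich adhesion proteins, 33 of 104 were higher and 7 lower (27 to 33 and 6 to 10 with any 1 library left out, 13 and 1 with the Xist covariate), with a median log2 fold change of 0.21. Proteoglycans and their sulphation enzymes had 21 of 65 higher and 5 lower (15 to 21 and 0 to 4 with 1 library left out), integrins and focal adhesion 14 of 39 higher and 4 lower (12 to 14 and 3 to 4 with 1 library left out), and metalloproteases with their inhibitors 17 of 49 higher and 5 lower (13 to 16 and 2 to 4 with 1 library left out). Markers of other matrix-producing cells were low: those of pericytes summed to 3.89 to 5.99 CPM in the knockdown and 2.11 to 5.64 CPM in scramble, with 1 of 3 higher (Pdgfrb, log2 fold change 1.39), and those of meningeal fibroblasts to 0.827 to 0.939 and 1.11 to 1.77 CPM, with none of 1 called. Their part in these counts was not tested.

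Tnc (ENSMUSG00000028364.15, chr4:63959785-64047015, minus strand), tenascin C, a matrix glycoprotein of the radial glial niche, stood at 457, 449.9 and 472 CPM in knockdown replicates 1, 2 and 3 and at 41.1, 48.1 and 22.3 CPM in those of scramble. Every knockdown library lay far above every scramble library, with a log2 fold change of 3.63 ± 0.25 SE, edgeR adjusted p = 8.53e-07. Col2a1, a fibrillar collagen chain, stood at 41.1, 41.8 and 31.7 CPM in knockdown replicates 1, 2 and 3 and at 6.36, 11.7 and 11.4 CPM in those of scramble. The highest scramble library was far below the lowest knockdown library (log2 fold change 1.94 ± 0.22 SE, edgeR adjusted p = 3.11e-05). Timp2 (ENSMUSG00000017466.9, chr11:118301069-118355740, minus strand), an inhibitor of matrix metalloproteases, stood at 93.3, 71.7 and 69.3 CPM in knockdown replicates 1, 2 and 3 and at 24.4, 19.7 and 18.6 CPM in those of scramble. Again the groups were far apart (log2 fold change 1.91 ± 0.13 SE, edgeR adjusted p = 8.53e-07). Vcam1, a receptor for integrins found on neural stem cells, rose from 10.9 ± 0.713 to 39.1 ± 4.25 CPM (log2 fold change 1.84 ± 0.13). Caveolar coat proteins rose from low levels, Cav1 from 0.324 ± 0.103 to 8.56 ± 3.77 CPM and Cav2 from 0.715 ± 0.179 to 5.89 ± 1.702 CPM.

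Pcdh7 (ENSMUSG00000029108.14, chr5:57717967-58133230, plus strand), a protocadherin, stood at 234, 176 and 162 CPM in knockdown replicates 1, 2 and 3 and at 60.4, 53.3 and 55.2 CPM in those of scramble. It rose in each library (log2 fold change 1.76 ± 0.12 SE, edgeR adjusted p = 8.53e-07), and Pcdh17 rose by 1.17 ± 0.12. Hs2st1, which adds sulphate to heparan sulphate chains, stood at 72.7, 74.6 and 75.7 CPM in knockdown replicates 1, 2 and 3 and at 30.2, 28.1 and 31.1 CPM in those of scramble. Its groups were each within a narrow range and far apart (log2 fold change 1.32 ± 0.10 SE, edgeR adjusted p = 1.51e-06). Glce, the epimerase that acts before it in that pathway, rose by 1.06 ± 0.11, and the sulphotransferase Hs3st5 by 1.46 ± 0.15. Of the surface genes that fell, Igsf21, which organises inhibitory synapses, had a log2 fold change of -1.47 ± 0.16, the neurotrimin gene Ntm one of -1.48 ± 0.23, the cadherin Cdh13 one of -0.57 ± 0.10, the netrin-G Ntng2 one of -1.0 ± 0.11, and the integrin subunit Itga3 one of -1.32 ± 0.19. Glycosyltransferases had 22 of 89 higher and 19 lower (14 to 20 and 13 to 17 with 1 library left out), with Galnt7 at 1.52 ± 0.14 and Galnt18 at -1.52 ± 0.18. Ntm, Itga3 and Cdh13 were not called with the Xist covariate (log2 fold change -1.24, -1.14 and -0.59, edgeR adjusted p = 0.0837, 0.0644 and 0.0782, in that order).

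**Figure D4:**
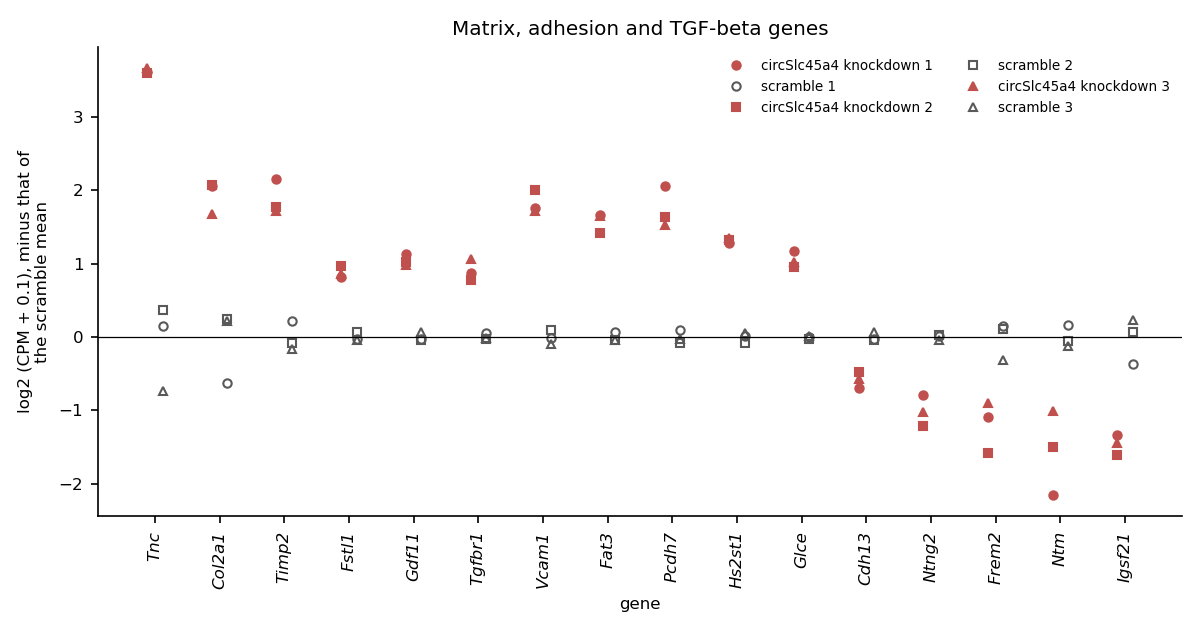
Matrix, adhesion and TGF-beta genes as log2 (CPM + 0.1) minus that of the scramble mean, with 1 point per library (filled, circSlc45a4 knockdown; open, scramble; shapes are replicates). From Tnc to Glce all knockdown libraries lie above all scramble libraries, and from Cdh13 to Igsf21 below them; the genes were taken from those named by the rule after their values were seen.

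Ion channels were called in both directions. Of voltage-gated channels, 20 of 89 were higher and 17 lower (15 to 17 and 13 to 16 with any 1 library left out, 9 and 6 with the Xist covariate, 17 and 19 with upper-quartile factors), with a median log2 fold change of -0.05. Scn1a (ENSMUSG00000064329.13, chr2:66270778-66440840, minus strand), a sodium channel subunit of neurons, stood at 15.1, 13.4 and 20.99 CPM in knockdown replicates 1, 2 and 3 and at 49.6, 53.7 and 44.1 CPM in those of scramble. The knockdown libraries all lay below scramble (log2 fold change -1.57 ± 0.14 SE, edgeR adjusted p = 7.01e-06). Kcnj10, the inward rectifier of astrocytes and their precursors, rose from 7.87 ± 1.28 to 26.6 ± 4.698 CPM (log2 fold change 1.76 ± 0.18). The auxiliary subunit Cacng2 and the potassium channel Kcnh8 fell by 1.74 ± 0.20 and 1.92 ± 0.24, and Kcnh5 rose by 1.23 ± 0.13. Ryr2, an intracellular calcium release channel, rose from 5.07 ± 1.17 to 25.6 ± 5.69 CPM. The GABA receptor subunit Gabrb2 fell by 1.55 ± 0.17, while Gabra2 and Gabra4 rose by 0.94 ± 0.17 and 1.13 ± 0.24. Receptor channels for glutamate, GABA, glycine and acetylcholine had 8 of 40 higher and 4 lower (5 to 8 and 3 to 4 with 1 library left out), and TRP, chloride, gap junction and aquaporin channels 14 of 68 higher and 6 lower (11 to 13 and 4 to 7 with 1 library left out). Gabra2 and Gabra4 were not called with the Xist covariate (log2 fold change 0.87 and 1.25, edgeR adjusted p = 0.11 and 0.0939, in that order).

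Of the solute carriers, 49 of 237 were higher and 43 lower (35 to 47 and 22 to 36 with any 1 library left out, 18 and 10 with the Xist covariate, 41 and 53 with upper-quartile factors), with a median log2 fold change of -0.01. Amino acid carriers other than Slc7a5 included Slc1a4, an exchanger of neutral amino acids, which fell from 43.2 ± 2.75 to 21.6 ± 0.471 CPM (log2 fold change -1.0 ± 0.10), Slc6a15, which fell by 1.54 ± 0.14, and Slc36a4, which rose from 50.3 ± 4.45 to 111 ± 8.18 CPM. Slc39a9, a zinc importer, rose from 26.1 ± 0.748 to 67.6 ± 4.55 CPM (log2 fold change 1.38 ± 0.09). The xenobiotic exporter Abcg2 fell from 24.6 ± 2.93 to 8.45 ± 1.02 CPM, the cholesterol exporter Abca1 fell from 73.8 ± 14.8 to 25.5 ± 8.78 CPM, and Atp1b1, the beta subunit of the sodium pump, had a log2 fold change of -0.83 ± 0.15. The list of ABC transporters and P-type ATPases had 14 of 60 higher and 11 lower (11 to 14 and 7 to 11 with 1 library left out). Abca1 and Atp1b1 were not called with the Xist covariate (log2 fold change -1.03 and -0.81, edgeR adjusted p = 0.113 and 0.108, in that order).

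Among the 55 lists, that of intermediate filaments and septins had the largest share called, 75.9%, with 11 higher and 11 lower of 29 (8 to 11 and 7 to 9 with any 1 library left out). Neurofilament subunits fell. Nefl (ENSMUSG00000022055.7, chr14:68083863-68089095, plus strand) stood at 3.76, 1.89 and 2.503 CPM in knockdown replicates 1, 2 and 3 and at 15.01, 10.01 and 11.4 CPM in those of scramble. Even the highest knockdown library was far below scramble (log2 fold change -2.15 ± 0.26 SE, edgeR adjusted p = 5.92e-05). Nefm fell from 33.6 ± 4.13 to 19.8 ± 2.65 CPM, and Nefh stood at 0.0447, 0.0547 and 0.0223 CPM in knockdown replicates 1, 2 and 3 and at 1.67, 1.199 and 0.741 CPM in those of scramble, below the level of 3 counts in each knockdown library. Septins Sept11 and Sept9 rose by 0.65 ± 0.07 and 0.53 ± 0.08. Eppk1, a plakin that binds intermediate filaments, stood at 8.83, 7.598 and 4.49 CPM in knockdown replicates 1, 2 and 3 and at 0, 0 and 0.185 CPM in those of scramble. Tubulins and microtubule-associated proteins had 7 of 83 higher and 8 lower (6 to 9 and 6 to 10 with 1 library left out), and kinesins and dynein 10 of 66 higher and 11 lower (6 to 8 and 4 to 11 with 1 library left out). Map2, of dendrites, rose by 0.73 ± 0.09, Tppp, which bundles microtubules, by 1.46 ± 0.15, and Dcx, of migrating neurons, fell by 0.63 ± 0.10. Actin regulators and myosins had 27 of 131 higher and 12 lower (21 to 25 and 5 to 9 with 1 library left out). Cyfip2, a subunit of the WAVE complex, rose by 1.30 ± 0.10, and the vesicle motor Myo5a by 1.04 ± 0.09. Genes of cilia had 16 of 107 higher and 17 lower (11 to 16 and 10 to 15 with 1 library left out, 1 and 4 with the Xist covariate). The shares higher and lower were 15.0% and 15.9% for cilia and 15.2% and 16.7% for kinesins and dynein. They were 8.43% and 9.64% for the tubulin list and 20.6% and 9.16% for the actin list. Of all protein-coding genes 17.2% were higher and 14.5% lower. Dcx was not called with the Xist covariate (log2 fold change -0.54, edgeR adjusted p = 0.104).

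In metabolism, genes of amino acid supply and tRNA charging were more often lower than higher. Of serine, one-carbon and ATF4 stress genes, 5 of 49 were higher and 16 lower (2 to 4 and 11 to 14 with any 1 library left out, 2 and 5 with the Xist covariate), with a median log2 fold change of -0.25. Of aminoacyl-tRNA synthetases, which charge tRNAs and include ATF4 targets, 0 of 39 were higher and 11 lower (0 to 1 and 8 to 12 with any 1 library left out, 0 and 2 with the Xist covariate), with a median log2 fold change of -0.18. Atf5 (ENSMUSG00000038539.15, chr7:44812256-44816658, minus strand), a bZIP factor of the amino acid response, stood at 10.3, 9.05 and 12.8 CPM in knockdown replicates 1, 2 and 3 and at 26.3, 30.3 and 30.4 CPM in those of scramble. All knockdown libraries were below all scramble libraries (log2 fold change -1.43 ± 0.16 SE, edgeR adjusted p = 2.80e-05). The mitochondrial synthetase Sars2 fell from 21.2 ± 0.981 to 11.1 ± 1.27 CPM, and Tars2 and Ears2 fell by 0.66 ± 0.10 and 0.70 ± 0.13. In the opposite direction, Aldh1l1, a folate enzyme of radial glia and astrocytes, rose by 1.48 ± 0.28, and Ddit3 (CHOP), a factor downstream of ATF4, had a log2 fold change of 0.53 ± 0.10. Ears2 and Ddit3 were not called with the Xist covariate (log2 fold change -0.54 and 0.43, edgeR adjusted p = 0.202 and 0.186, in that order).

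Of nucleotide synthesis genes, 8 of 59 were higher and 18 lower (5 to 7 and 12 to 17 with any 1 library left out, 1 and 5 with the Xist covariate), with a median log2 fold change of -0.08. Lower were the pyrimidine enzymes Cad, Umps and Dctd, at -0.47 ± 0.08, -0.64 ± 0.10 and -0.71 ± 0.13. Fatty acid and phospholipid genes had 20 of 122 higher and 24 lower (16 to 20 and 13 to 19 with 1 library left out). Hadhb, a subunit of the mitochondrial trifunctional protein of fatty acid oxidation, rose from 19.01 ± 2.71 to 56.5 ± 1.57 CPM (log2 fold change 1.57 ± 0.11), and Elovl5, which elongates polyunsaturated fatty acids, rose from 22.3 ± 0.547 to 61.6 ± 3.81 CPM (log2 fold change 1.47 ± 0.09), while Fads2, the desaturase of that route, fell by 0.60 ± 0.09. The circadian clock list had 8 of 23 higher and 3 lower (5 to 7 and 0 to 4 with 1 library left out). Besides Clock, Csnk1d, a kinase of the PER proteins, rose by 0.80 ± 0.09, and Tef by 0.59 ± 0.09, while the activator Arntl had a log2 fold change of -0.46 ± 0.15 and its repressor Nr1d1 one of -0.62 ± 0.16. Redox defence, glutathione and metal genes had 13 of 89 higher and 7 lower (11 to 15 and 4 to 8 with 1 library left out). The shares higher and lower were 14.6% and 7.87% for the redox list and 16.4% and 19.7% for fatty acid and phospholipid genes. Of all protein-coding genes 17.2% were higher and 14.5% lower. Cad, Dctd, Fads2, Arntl and Nr1d1 were not called with the Xist covariate (log2 fold change -0.48, -0.81, -0.50, -0.33 and -0.44, edgeR adjusted p = 0.0654, 0.0554, 0.0742, 0.524 and 0.412, in that order). Arntl and Nr1d1 did not pass when a change had to exceed 1.2-fold (edgeR adjusted p = 0.169 and 0.0516, in that order). The call of Arntl ended without knockdown replicate 1 (-0.33, edgeR adjusted p = 0.142), without knockdown replicate 2 (-0.45, edgeR adjusted p = 0.0907), without scramble replicate 1 (-0.48, edgeR adjusted p = 0.0624), without scramble replicate 2 (-0.43, edgeR adjusted p = 0.116) and without scramble replicate 3 (-0.47, edgeR adjusted p = 0.0744). The call of Nr1d1 ended without scramble replicate 2 (-0.53, edgeR adjusted p = 0.0639).

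The spliceosome list was near the background, with 27 of 174 higher and 25 lower (19 to 25 and 15 to 23 with 1 library left out, 23 and 34 with upper-quartile factors), but 2 neuronal splicing regulators of 1 family moved in opposite directions. Nova1 (ENSMUSG00000021047.7, chr12:46694517-46818929, minus strand) stood at 49.5, 34.7 and 30.9 CPM in knockdown replicates 1, 2 and 3 and at 9.28, 10.1 and 12.2 CPM in those of scramble. It was raised in each knockdown library (log2 fold change 1.86 ± 0.18 SE, edgeR adjusted p = 1.33e-05). Nova2 (ENSMUSG00000030411.16, chr7:18925888-18965319, plus strand), its paralogue and the main form of the cortex, stood at 63.6, 64.5 and 63.9 CPM in knockdown replicates 1, 2 and 3 and at 167, 152 and 144 CPM in those of scramble. It was lower in each (log2 fold change -1.27 ± 0.09 SE, edgeR adjusted p = 8.53e-07). Srsf4, a serine and arginine rich splicing factor, fell by 0.99 ± 0.07, and the helicase Dhx15 rose by 0.85 ± 0.08. Translation factors had 10 of 75 higher and 10 lower (8 to 11 and 5 to 7 with 1 library left out), and Eif3f, a subunit of initiation factor eIF3, stood at 146, 179 and 183 CPM in knockdown replicates 1, 2 and 3 and at 300.4, 295 and 299 CPM in those of scramble. The knockdown libraries were all below scramble (log2 fold change -0.82 ± 0.09 SE, edgeR adjusted p = 3.33e-05). Ribosome biogenesis had 7 of 91 higher and 13 lower (4 to 7 and 10 to 13 with 1 library left out), and the mitochondrial ribosome and import list 13 of 121 higher and 13 lower (7 to 9 and 6 to 11 with 1 library left out). The shares higher and lower were 13.3% and 13.3% for translation factors and 7.69% and 14.3% for ribosome biogenesis. They were 10.7% and 10.7% for the mitochondrial list. All lay below those of protein-coding genes, 17.2% higher and 14.5% lower.

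In protein turnover and traffic, each list had more members higher than lower in the reported test, though not in every other setting. The lists hold only protein-coding genes, of which 17.2% were higher and 14.5% lower, against 14.1% and 13% of all genes. Lysosomal genes (30.1% higher, 13.7% lower) and deubiquitinases (27.9%, 11.8%) had the highest shares called higher. Chaperones (18.8%, 11.6%), Rab GTPases, SNAREs and sorting proteins (19.0%, 10.6%) and autophagy genes (17.8%, 11.1%) were close to protein-coding genes in the share higher. The proteasome (13%, 6.52%) was below them. With upper-quartile factors the split turned for ubiquitin ligases and adaptors (47 higher, 49 lower) and for chaperones (15 higher, 16 lower). Lysosomal genes had 3 higher and 3 lower with the Xist covariate, and 8 and 6 when a change had to exceed 1.2-fold. With that covariate deubiquitinases had 6 and 0, ubiquitin ligases and adaptors 16 and 5, and Rab GTPases, SNAREs and sorting proteins 22 and 9. Chaperones had 3 and 1 there, autophagy genes 2 and 1, and the proteasome 0 and 1. Deubiquitinases had 19 of 68 higher and 8 lower (13 to 21 and 6 to 7 with 1 library left out), and Usp46 (ENSMUSG00000054814.14, chr5:73998453-74068431, minus strand), a neuronal deubiquitinase, stood at 84.9, 85.98 and 73.7 CPM in knockdown replicates 1, 2 and 3 and at 22.5, 21.4 and 22.6 CPM in those of scramble. Its groups were each tight and far apart (log2 fold change 1.88 ± 0.10 SE, edgeR adjusted p = 2.70e-07). Ubiquitin ligases and adaptors had 61 of 293 higher and 38 lower (37 to 51 and 20 to 37 with 1 library left out), with the proteasome-bound ligase Ube3c at 1.03 ± 0.07 and Rnf10 at -1.04 ± 0.09. Rab GTPases, SNAREs and sorting proteins had 61 of 321 higher and 34 lower (41 to 58 and 18 to 30 with 1 library left out), with the COPII coat protein Sec24d at 2.35 ± 0.20 and the synaptic vesicle calcium sensor Syt1 at -1.25 ± 0.13. Lysosomal genes had 22 of 73 higher and 10 lower (14 to 19 and 8 to 11 with 1 library left out), and chaperones 21 of 112 higher and 13 lower (11 to 18 and 7 to 11 with 1 library left out). Autophagy genes had 8 of 45 higher and 5 lower (5 to 8 and 4 to 5 with 1 library left out), and the proteasome 6 of 46 higher and 3 lower (4 to 5 and 2 to 3 with 1 library left out). The co-chaperone Ptges3 rose by 1.54 ± 0.11, and Bnip3l, a receptor for mitophagy, fell by 0.68 ± 0.10, on the log2 scale.

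The share of genes called depended on their level. It was 9.13% of 3175 genes under 1 CPM, 26.0% of 4224 at 1 to 10 CPM, 33.3% of 7865 at 10 to 100 CPM and 32.4% of 2496 over 100 CPM. Below 10 CPM more genes were lower than higher (644 against 454 at 1 to 10 CPM), and above 100 CPM more were higher (516 against 293). The most abundant of the called genes changed by less than 2-fold. H3f3b, a replication-independent histone H3 gene, Ptma, Nfib and Eif4a1 rose by 0.45 ± 0.08, 0.29 ± 0.07, 0.29 ± 0.07 and 0.27 ± 0.07, and Sbk1, Hspa8 and Eif4g2 fell by 0.79 ± 0.12, 0.35 ± 0.07 and 0.42 ± 0.09 (log2). H3f3b, Ptma, Nfib, Eif4a1, Sbk1, Hspa8 and Eif4g2 were not called with the Xist covariate (log2 fold change 0.39, 0.18, 0.24, 0.21, -0.54, -0.31 and -0.37, edgeR adjusted p = 0.116, 0.427, 0.274, 0.346, 0.111, 0.196 and 0.206, in that order). Ptma, Nfib, Eif4a1, Hspa8 and Eif4g2 did not pass when a change had to exceed 1.2-fold (edgeR adjusted p = 0.415, 0.458, 0.528, 0.196 and 0.0876, in that order).

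Genes that span more of the genome were called more often and more often higher. Under 10 kb 18.5% of 7033 genes were called (594 higher, 706 lower), at 10 to 50 kb 30.2% of 6538 (979 and 994), at 50 to 200 kb 35.4% of 3287 (699 and 466), and over 200 kb 42.3% of 878 (233 and 138). Among protein-coding genes over 10 CPM these shares were 31.0%, 32.9%, 38.4% and 46.3%, in the same order. By gene type, protein-coding genes were called in 31.7% of 13361 cases, with 2299 higher and 1943 lower. Long non-coding types leaned lower: 26 higher and 73 lower of 472 lincRNAs (median log2 fold change -0.29), 14 and 49 of 389 antisense genes (-0.42), 8 and 48 of 238 processed transcripts (-0.26), and 2 and 14 of 57 bidirectional promoter transcripts (-0.50). Without a known strand setting, reads of antisense genes cannot be told apart from those of their partners. Processed pseudogenes, whose reads can be shared with their parent genes, were called in 10.3% of 2282 cases.

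**Figure D5:**
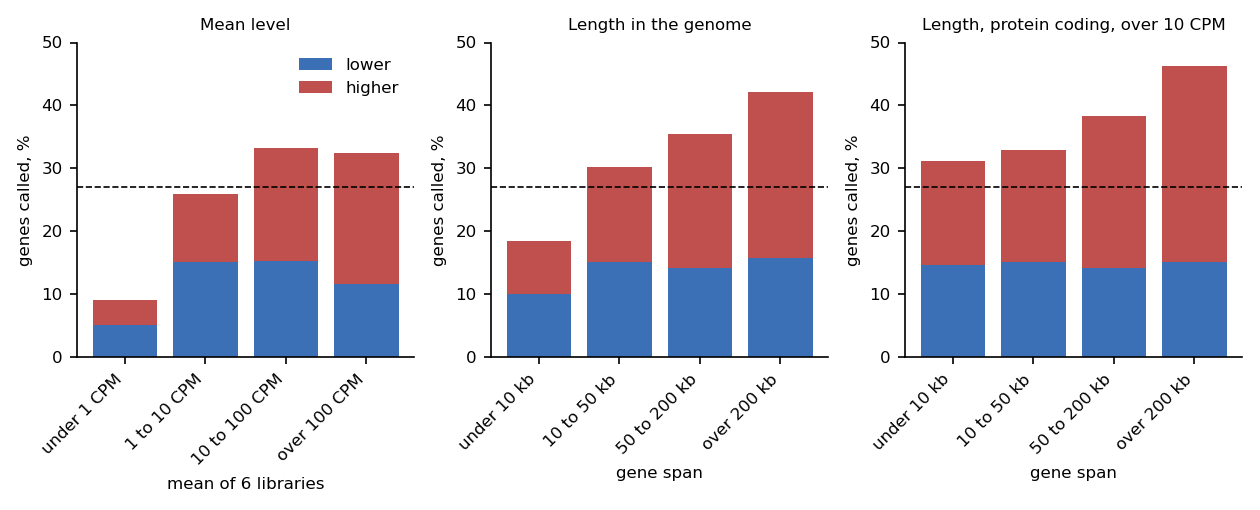
Percent of genes called lower and higher by mean level (CPM, left) and by length in the genome (kb, middle and right). The right panel holds only protein-coding genes over 10 CPM, and the dashed line marks the share of all genes tested (27.1%). The share called higher grows with level and length.

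A few genes stood apart in 1 library. In knockdown replicate 1, 10 genes were more than 4-fold above each of the other 5 libraries, and only Lgals9 was called between the groups (log2 fold change 3.95, edgeR adjusted p = 0.0386). Its call ended with the Xist covariate (2.10, edgeR adjusted p = 0.535) and held in 2 of the 6 fits without 1 library. The 10 genes were Oasl2, Isg15, Ifit1, Oas1g, Lgals9, Parp14, Oas1a, B2m, Ifi44 and Nlrc5, which interferon is known to induce, and their levels summed to 55.6 CPM there, to 6.12 and 5.66 CPM in replicates 2 and 3, and to 7.75, 10.1 and 6.14 CPM in scramble. B2m, the light chain of class I histocompatibility proteins, stood at 34.6, 4.51 and 4.54 CPM in the knockdown and at 5.88, 7.65 and 4.69 CPM in scramble. In scramble replicate 2, Dusp9, a phosphatase of MAP kinases, alone was more than 4-fold above the others. It was also called between the groups, at 0.0447, 0 and 0.0223 CPM in the knockdown, each below the level of 3 counts, and at 0.287, 1.65 and 0.309 CPM in scramble (edgeR adjusted p = 0.00198). The call held in all 6 fits without 1 library and ended with the Xist covariate (edgeR adjusted p = 0.0939). Genes more than 4-fold below each of the other 5 libraries numbered 7 in scramble replicate 2, 6 in knockdown replicate 2, 3 in each of scramble replicates 1 and 3, and 1 in knockdown replicate 1. Knockdown replicate 3 had no gene of either kind. Of the 2509 genes called higher and 2305 called lower, 2253 and 1995 were counted at the most, and 1858 and 1528 at the fewest, when 1 library was left out, the fewest without scramble replicate 2.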

How the data were processed

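RNA-seq libraries of GFP+ cells from mouse cortex were compared. The authors deposited raw, whole-number read counts for each gene. The submitters' processing notes list STAR 2.4.2a, bcl2fastq 2.17.1.14, mm10 and DESeq2 without their roles, and the counting program, annotation release and strand setting are not given in the sources used. IDs were joined to GENCODE M21 (GRCm38), and 53274 had a symbol. Low genes were removed with edgeR 4.0.16 (filterByExpr by group, minimum count 10). Libraries were scaled by TMM. The quasi-likelihood model had 1 term per group, took all 9 libraries and kept 6 residual degrees of freedom, and in it the circSlc45a4 knockdown was tested against scramble with Benjamini-Hochberg adjustment over 17760 genes. Each SE is the size of the log2 fold change over the root of its F value, and the common biological coefficient of variation was 13.9%. CPM are counts per scaled total, and values of different genes were not compared. A count of 0 allows up to 3 counts, 0.0671 to 0.082 CPM in the knockdown and 0.0926 to 0.143 CPM in scramble, for counting error only. On simulated data of 17760 genes, the test recovered 57% of 100 genes changed by 1.5-fold and 79% of 100 changed by 2-fold, with 10 false calls. The changed genes were drawn from those over 1 CPM. Far fewer genes were changed there than the 27.1% called in the data, so these rates were not measured at that share.

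The comparison and its 55 gene lists were chosen with earlier results of these data known, as were the sequence words, which were found from the calls. Genes were named by a rule: Slc45a4 and called genes within 1 Mb of it, up to 3 members a list in each direction by p with non-overlapping groups, the 12 largest rises and falls among transcription factors, the 6 most abundant called genes in each direction, and the 3 genes at which a library stood furthest above the others. Notch2, Nkiras2 and Pcgf3, with sites shown, Pou3f2 and Gna12, and the cell type markers were named outside it, as were Lgals9 and the other single-library genes, after their values were seen. Sex-linked genes other than Eif2s3x were also named outside it. The rule ranked transcription factors only at an average log2 CPM of at least 1, and it named no predicted gene models. Sequences are from GENCODE M21 transcripts and, for miRNAs, RefSeq (GRCm38.p6). Alternatives were RLE and upper-quartile factors, limma-voom (limma 3.58.1), DESeq2 1.42.0, other filters, thinned counts, only the 6 libraries, a replicate block, Xist as a covariate, a minimum change of 1.2-fold, and leaving out each library. Some genes and 1 list that the rule or the lists cover are not reported here.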

Additional observations from a re-analysis of the deposited data

How the results depend on the processing

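Against 2509 genes called higher and 2305 lower, Xist as a covariate left 787 and 412 (392 and 212 of them over 2-fold, from 629 and 540), and a minimum change of 1.2-fold left 1344 and 1086. Leaving out 1 library gave 1858 to 2253 higher and 1528 to 1995 lower. The replicate block, which joins libraries of equal number, gave 2337 and 2075; same-numbered libraries had correlations of -0.12, 0.03 and -0.07 in their deviations from the group means, so the numbers do not pair them. No other alternative moved either count by over 1.5 times. Slc45a4 stood at -0.23 with the Xist covariate (edgeR adjusted p = 0.581), at -0.39 in the test against 1.2-fold (edgeR adjusted p = 0.206), and at -0.43 to -0.37 with 1 library left out, passing only without scramble replicate 1. The median log2 fold change of genes with GTCGAT (0.33) was 0.27 with upper-quartile factors and 0.39 with the covariate, and that of genes with AGCCGC (-0.10) was -0.16 and -0.05. Of 3 interferon-induced genes not called in the reported test, Isg15 (2.71), Oasl2 (2.01) and Ifit1 (3.07) were all called with no filter on low counts (edgeR adjusted p = 1.74e-08, 8.72e-09 and 2.75e-04), and Isg15 also without knockdown replicate 3 (3.28, edgeR adjusted p = 0.0468). Isg15 turned to -0.13 and Oasl2 to -0.41 with the covariate, and without knockdown replicate 1 Oasl2 turned to -1.55 and Ifit1 to -0.77, where leaving out other libraries gave values up to 2.57 for Oasl2 and 7.39 for Ifit1. Of 340 named genes, 135 lost their call with the covariate, 45 against 1.2-fold and 10 to 19 with 1 library left out. SEs grew 1.74-fold with the covariate, and why these calls ended was not tested. Of 110 list counts, 104 moved by over 1.5 times with the covariate, 78 against 1.2-fold, 6 to 38 with 1 library left out (most without scramble replicate 2) and at most 12, with upper-quartile factors, under the other alternatives. Of 36 lists with more members higher than lower, 7 had more lower with upper-quartile factors.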

Other observations

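Markers of other forebrain cells were low. Those of the ventral forebrain and interneurons summed to 1.78 to 3.64 CPM in the knockdown and 3.16 to 7.29 CPM in scramble, with 3 of 5 tested members lower, namely Dlx1 (log2 fold change -1.54), Dlx2 (-1.68) and Gad2 (-1.72). Those of the oligodendrocyte lineage summed to 1.18 to 1.9 CPM and 0.292 to 0.587 CPM, with 1 of 1 tested member higher, Olig2 (2.64), a factor that radial glia also express. Erythroid markers summed to 9.01 to 22.3 CPM in the knockdown and 9.2 to 14.4 CPM in scramble, with none of 4 called, and choroid plexus markers to at most 0.313 and 1.17 CPM.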
